A study of Mus musculus with 6 samples.

Results

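The genes described here are the nuclear genes for subunits of the mitochondrial respiratory chain and ATP synthase, read in the vestibule and the cochlea of the newborn mouse inner ear. They were taken as all genes with a probe set annotated to that gene alone whose symbol starts with Nduf, Sdha, Sdhb, Sdhc, Sdhd, Uqcr, Cox4i, Cox5, Cox6, Cox7, Cox8 or Atp5, or is Cycs or Cyc1. This gave 96 genes, read by 190 probe sets, of 18193 genes named on the array. Each gene was represented by its brightest probe set, the one with the highest mean over the 6 arrays. After a filter on low values 94 of them were tested, among 14184 genes in all, and Ndufb4 and Cox7b2, with mean log2 levels of 4.0 and 3.58, were not. The prefixes also took in 12 assembly factors (the Ndufaf and Sdhaf genes), the supercomplex factor Cox7a2l and the Ndufa4 relative Ndufa4l2, and these are given apart from the subunits.

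The study set vestibular against cochlear sensory epithelia, with 3 arrays of each tissue. All animals were wild type C3H mice at postnatal day 2, with no treatment, and the epithelia were pooled from 10 to 12 inner ears. The vestibule was sampled as utricle and saccule together with 2 of the cristae, lateral and anterior, while mesenchyme and neurons stayed on both epithelia, so every array read a mixture of cell types. In such bulk samples fewer cells of a type and less RNA per cell cannot be told apart. All levels below are log2 expression values, all differences are vestibule minus cochlea on that log2 scale, and a member was called at a Benjamini-Hochberg adjusted p under 0.1 (limma, over all probe sets tested) with a fold of at least 1.3.

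The respiratory chain sits in the inner mitochondrial membrane. Complex I takes electrons from NADH and complex II from succinate, and coenzyme Q carries them to complex III, from which cytochrome c passes them to complex IV and so to oxygen. Complexes I, III and IV pump protons as electrons pass, and ATP synthase, also called complex V, uses the returning protons to make ATP. Each complex except complex II joins subunits encoded by nuclear genes, which are made in the cytosol and imported, with others that mitochondrial DNA encodes, and only the nuclear-encoded ones fall under the rule. Some subunits descend from those of bacterial enzymes and hold the catalytic centres, while many others were added during eukaryotic evolution. Hair cells and spiral ganglion neurons of the inner ear depend on mitochondrial ATP, and hearing loss is a common sign of mitochondrial disease.

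Nuclear respiratory factor 1 (NRF1) is a transcription factor first known from the promoter of cytochrome c and of other respiratory chain genes. Its core motif GCGCATGC, searched on both strands in RefSeq promoters (GRCm38.p6, 250 bases before to 50 after the gene start), occurred in 12 of 84 windows of 79 member genes. That is 14.3% of member windows, against 2.71% of 32851 windows of all genes. The matches are shown because they are letters found near the start of members of every complex, each as 30 bases with the match in capitals, on the strand of the gene. For each gene the match nearest to its start is shown. The capitals are longer where the motif runs on into its own reverse complement, as in 5 of the matches shown, and Ndufaf4 had such a longer match as well, farther from its start, which makes 6 promoters with one.
Atp5g2, chr15:102671070-102671099, minus strand: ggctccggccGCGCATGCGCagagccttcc
Atp5k, chr5:108434430-108434459, minus strand: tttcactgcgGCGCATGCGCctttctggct
Atp5l, chr9:44920963-44920992, minus strand: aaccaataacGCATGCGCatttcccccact
Cox6a1, chr5:115349101-115349130, minus strand: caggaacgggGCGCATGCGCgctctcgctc
Cycs, chr6:50566611-50566640, minus strand: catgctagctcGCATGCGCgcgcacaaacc
Ndufa6, chr15:82354356-82354385, minus strand: tccgcggtagaGCATGCGCattgcagagcc
Ndufa8, chr2:36049328-36049357, minus strand: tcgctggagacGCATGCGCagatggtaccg
Ndufaf4, chr4:24898073-24898102, plus strand: gcccctggtgtGCGCATGCtccgtgcgtac
Ndufaf5, chr2:140170652-140170681, plus strand: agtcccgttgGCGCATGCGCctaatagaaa
Sdhb, chr4:140961206-140961235, plus strand: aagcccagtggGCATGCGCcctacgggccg
Uqcr11, chr10:80406807-80406836, minus strand: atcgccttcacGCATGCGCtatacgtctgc
Uqcrc1, chr9:108936668-108936697, plus strand: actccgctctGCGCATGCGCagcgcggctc

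The motif CCGGAAG of the GA-binding protein (GABP) was in 26.2% of member windows and in 8.86% of all windows. The motif AAGATGGC of YY1 was in 11.9% of member windows and 2.75% of all, the motif TCAAGGTCA of the oestrogen-related receptors (ERR) in 2.38% and 0.423%, and GGGCGG, bound by SP1, in 48.8% and 35.7%. All were searched on both strands, and NRF1 and SP1 letters are rich in G and C, as were the member windows (median GC content 59%, against 52.7% in all windows). A match is a string of letters and not a measured binding site. The 12 members with an NRF1 match had a median difference of -0.08 between the tissues, with 2 above 0 and 9 below, and the 65 tested members with a window but no match had a median of -0.03. For GABP the medians were -0.10 over 22 members with a match and -0.03 over 55 without one.

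Cochlea replicate 2 read high for these genes: it lay above the mean of its tissue in 81 of 94 members and below it in 10, with a median deviation of 0.20. Cochlea replicate 1 lay below that mean in 73 members, and vestibule replicate 2 lay above its own tissue mean in 66. The mean log2 level of the 94 members was 10.49, 10.61 and 10.51 on vestibule replicates 1 to 3, against 10.44, 10.72 and 10.48 on cochlea replicates 1 to 3. The vestibular arrays thus fell inside the range of the cochlear ones, with means of 10.54 ± 0.06 for the vestibule and 10.55 ± 0.15 for the cochlea (SD, n = 3 each). Skeletal muscle is rich in these transcripts, and 9 of 14 listed muscle markers passed the filter. Of the 9, 3 were called, all higher in the cochlea, while 23.1% of all genes were called in either direction. The mean of the 9 was 5.37 to 5.83 on the vestibular arrays and 5.89, 7.0 and 6.07 on cochlea replicates 1 to 3, so it too was highest on cochlea replicate 2. Of the 3 called markers Myl1 was highest there (6.1, 7.0 and 6.7), but Tnnt1 (8.1, 8.0 and 8.1) and Des (6.6, 6.4 and 6.5) were not. The 6 markers that were not called were all highest there. Among these, Acta1 had 5.2, 8.0 and 5.5, Tnnc2 4.8, 7.7 and 5.4, and Ckm 5.4, 5.8 and 5.4. The rise was not particular to the members. On cochlea replicates 1 to 3 mitochondrial ribosomal proteins had means of 9.11, 9.39 and 9.19, and protein import genes 10.19, 10.31 and 10.20. Regulators of mitochondrial biogenesis had 7.96, 7.91 and 7.92. The part of muscle in the member levels was not tested.

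**Figure D1:**
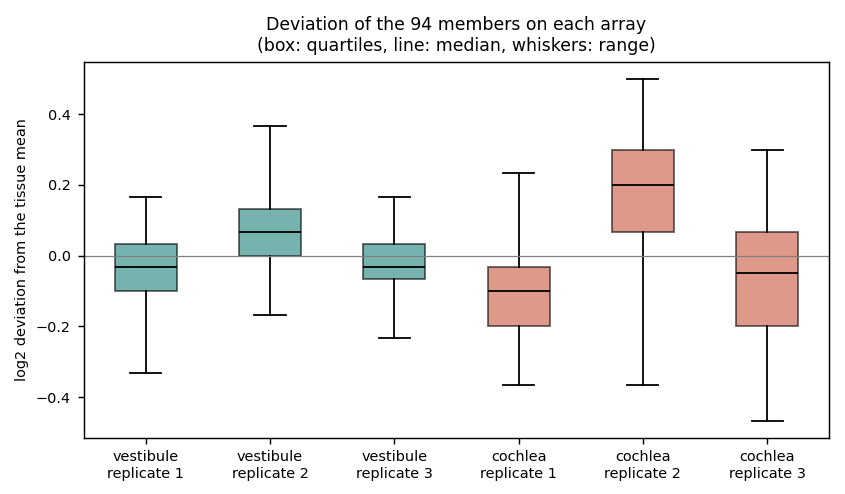
Deviation of each of the 94 members from the mean of its own tissue (y axis, log2) on each of the 6 arrays (x axis), with boxes for the quartiles, lines for the median and whiskers for the range. Cochlea replicate 2 has a median deviation of 0.20, while the medians of the other 5 arrays lie between -0.10 and 0.07.

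The respiratory chain genes showed small differences between the vestibule and the cochlea. Only Ndufs1, a core iron-sulfur subunit of complex I, was called, and it was higher in the vestibule. Thus 1 member of 94 (1.06%) was called, whereas over all genes tested 23.1% were called, 15.1% with the vestibule above and 7.97% with the cochlea above. Bright genes gave a similar background, since 18.7% of the 2180 genes with a mean level of at least 10 were called. At an unadjusted p under 0.05 by limma there were 6 members (6.38%), Ndufs1, Ndufv1, Sdhc, Uqcrq, Atp5k and Atp5md, against 31.4% of all genes.

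All 94 differences lay between -0.37 and 0.40, that is, between 0.776-fold and 1.32-fold, with a median of -0.03 (0.03 without cochlea replicate 2) and quartiles of -0.17 and 0.13. Over all genes tested the differences ran from -6.33 to 5.07 with a median of 0.03, and 75.8% of genes fell within 0.4 of 0. Of the members, 38 were above 0, 51 below and 5 at 0. The 3 arrays of each tissue did not overlap in 3 members with the vestibule above (Ndufs1, Ndufv1 and Atp5a1) and in 5 with the cochlea above (Ndufb7, Ndufv2, Ndufa4, Ndufaf5 and Cox7a2l). For all genes these shares were 19.9% with the vestibule above and 12.4% with the cochlea above, and for the members 8.51% in both directions together. The 95% confidence interval of the difference stayed within a fold of 1.5 either way in 69 of the 94 members (73.4%) and in 59.6% of all genes. The remaining members are therefore not shown to be alike at that size, and the widest bounds of any member were -0.75 and 0.84. The median standard error was 0.14 for the members and 0.13 for all genes.

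**Figure D2:**
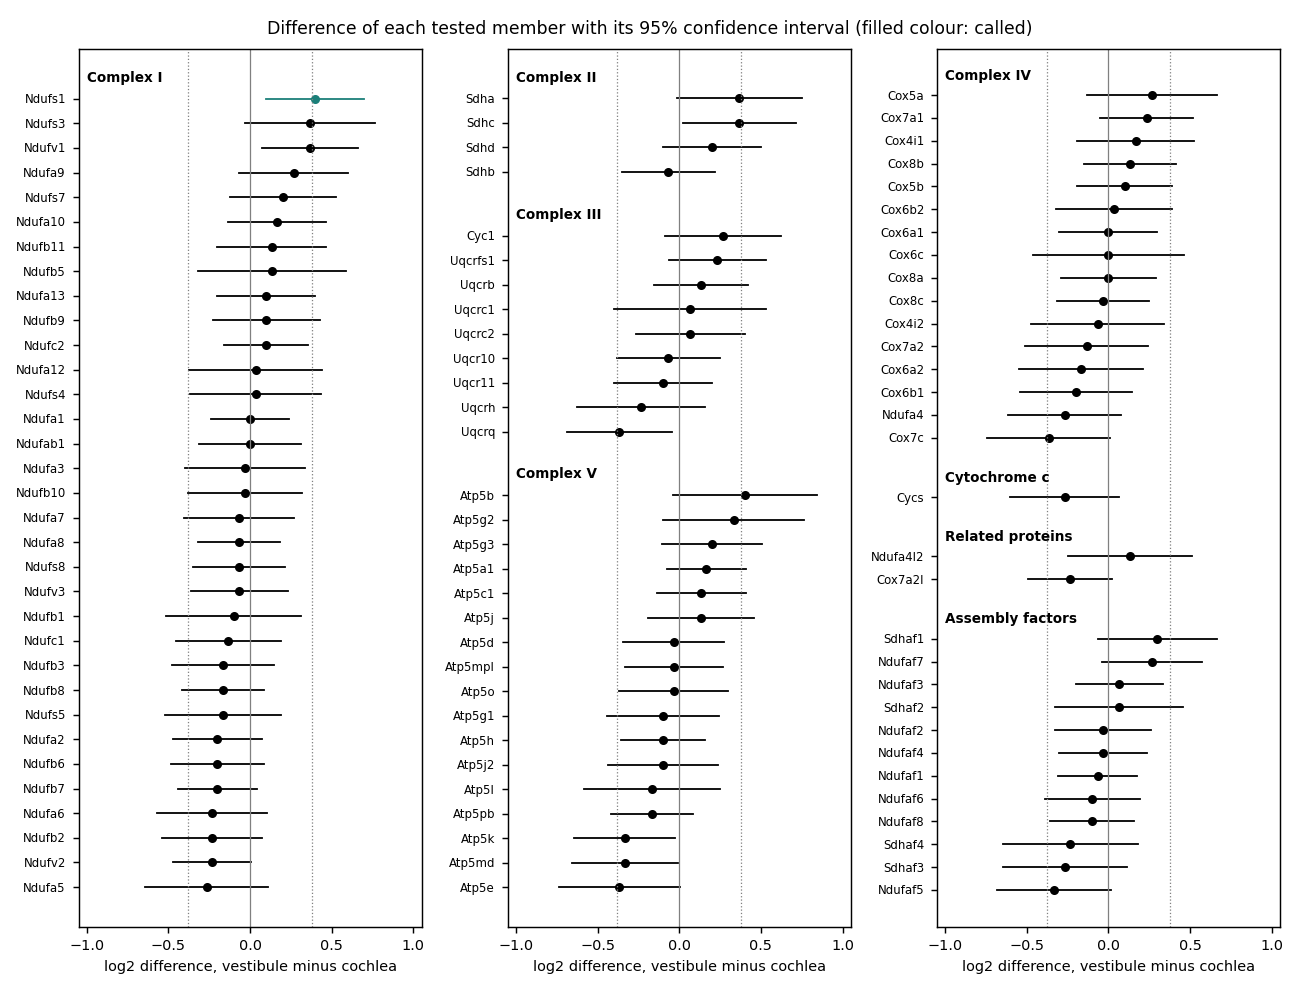
Difference of each of the 94 tested members (points, x axis, log2, vestibule minus cochlea) with its 95% confidence interval (lines), grouped by complex and ordered by size, with dotted lines at the fold of 1.3. All points lie between -0.37 and 0.40, and Ndufs1, drawn in colour, is the member that was called.

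Complex I contributed 33 tested subunits, with a median difference of -0.03 and a range of -0.27 to 0.40. Its 6 measured core subunits with bacterial counterparts hold the flavin and iron-sulfur centres or lie next to them. Ndufs1 had levels of 11.1, 10.8 and 11.0 on vestibule replicates 1 to 3, against 10.6, 10.7 and 10.4 on cochlea replicates 1 to 3. Every vestibular array was thus above every cochlear one, and the difference was 0.40 (SE 0.13, 95% interval 0.10 to 0.70, limma adjusted p = 0.0786). This call is a narrow one: it was lost when vestibule replicate 1 (adjusted p = 0.256 by limma), vestibule replicate 3 (0.221), cochlea replicate 1 (0.153) or cochlea replicate 3 (0.169) was left out.

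Ndufv1 binds NADH and the flavin at the tip of the complex. Its levels were 11.7, 11.7 and 11.6 in the vestibule, against 11.3, 11.5 and 11.1 in the cochlea, again with no overlap. The difference of 0.37 had a limma adjusted p of 0.0994 but fell short of the 1.3-fold minimum. Ndufs3, a core subunit of the arm that leads electrons towards the membrane, had 11.4, 11.3 and 11.2 in the vestibule, against 10.9, 11.3 and 10.6 in the cochlea, with cochlea replicate 2 as high as the vestibule (0.37, limma adjusted p = 0.213). Ndufv2, the partner of Ndufv1 in the NADH module, lay on the other side of 0, with 11.5, 11.6 and 11.5 in the vestibule and 11.7, 11.8 and 11.8 in the cochlea (-0.23, limma adjusted p = 0.191). Core subunits Ndufs7 and Ndufs8 had differences of 0.20 and -0.07.

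The other 27 complex I members form the shell around the core. They were classed together as added in eukaryotes, without tracing the origin of each. Their median was -0.07, with 9 above 0, 16 below and 2 at 0, and none was called. The lowest was Ndufa5, a subunit of the matrix arm, with 10.7, 10.9 and 10.8 in the vestibule, against 10.7, 11.3 and 11.2 in the cochlea (-0.27, 95% interval -0.65 to 0.11). Without cochlea replicate 1 it was -0.45 and passed (limma adjusted p = 0.0593). The highest was Ndufa9, which helps join the matrix arm to the membrane arm, with 11.2, 11.1 and 11.2 in the vestibule and 10.8, 11.2 and 10.7 in the cochlea (0.27, 95% interval -0.07 to 0.60). Both sets of arrays overlapped. Ndufa1, with 13.1, 13.0 and 13.0 in the vestibule, against 13.0, 13.1 and 13.0 in the cochlea, had a difference of 0.00 with a 95% interval of -0.24 to 0.24.

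Complex II, succinate dehydrogenase, is also an enzyme of the TCA cycle and is encoded wholly in the nucleus. Its 4 subunits had a median of 0.28 (0.20 without Sdha, whose dimmest tested probe set differs in sign from the brighter ones), and none was called. Sdha, the flavoprotein that oxidises succinate, had 11.7, 11.5 and 11.7 in the vestibule and 11.5, 11.4 and 10.9 in the cochlea, so the arrays met at 11.5 (0.37, limma adjusted p = 0.196). Sdhc, a membrane anchor, had 9.9, 10.1 and 9.9 in the vestibule, against 9.5, 9.9 and 9.4 in the cochlea, where replicate 2 again reached the vestibular level. Its difference was 0.37 (95% interval 0.02 to 0.71, limma adjusted p = 0.154), and without cochlea replicate 2 it was 0.52 and passed (adjusted p = 0.0322 by limma). The second anchor Sdhd had a difference of 0.20. The iron-sulfur subunit Sdhb lay below 0, at -0.07, with 11.4, 11.6 and 11.4 in the vestibule and 11.5, 11.7 and 11.4 in the cochlea.

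Complex III gave 9 subunits with a median of 0.07 and none called. Both of its nuclear-encoded catalytic subunits lay above 0. Cyc1, the haem-bearing cytochrome c1, had 11.9, 11.9 and 11.8 in the vestibule, against 11.3, 11.9 and 11.6 in the cochlea (0.27, limma adjusted p = 0.313, and 0.42 with 0.0761 without cochlea replicate 2). Uqcrfs1, the Rieske iron-sulfur protein, had a difference of 0.23. The lowest member of the complex was Uqcrq, a small subunit without a redox centre, with 10.3, 10.5 and 10.2 in the vestibule and 10.7, 10.9 and 10.5 in the cochlea. The arrays touched at 10.5, and the difference was -0.37 (95% interval -0.69 to -0.05, limma adjusted p = 0.126). Uqcrq passed, higher in the cochlea, under 4 alternatives: array weights, median centring, a second quantile normalization and without cochlea replicate 3 (limma adjusted p of 0.0482 to 0.0835). The large core proteins Uqcrc1 and Uqcrc2 were both at 0.07 by their brightest probe sets. The other probe set of Uqcrc2, with a mean level of 11.38, read 11.6, 11.6 and 11.5 in the vestibule, against 11.2, 11.4 and 11.0 in the cochlea. Its difference was 0.37 without overlap (limma adjusted p = 0.0994), short of the 1.3-fold minimum.

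Cytochrome c, encoded by Cycs, carries electrons from complex III to complex IV and also triggers caspases when released. Cycs had 11.7, 11.6 and 11.6 in the vestibule, against 11.6, 12.1 and 12.0 in the cochlea. Cochlea replicate 1 matched the vestibule while the other 2 cochlear arrays were higher (-0.27, 95% interval -0.60 to 0.07, limma adjusted p = 0.28). Without cochlea replicate 1 the difference was -0.42 and passed (limma adjusted p = 0.0588). These values are those of the brightest probe set of Cycs. Another, with a mean level of 10.65, gave -0.30 without overlap (limma adjusted p = 0.125). One with a mean level of 10.83 gave -0.07 with overlap.

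**Figure D3:**
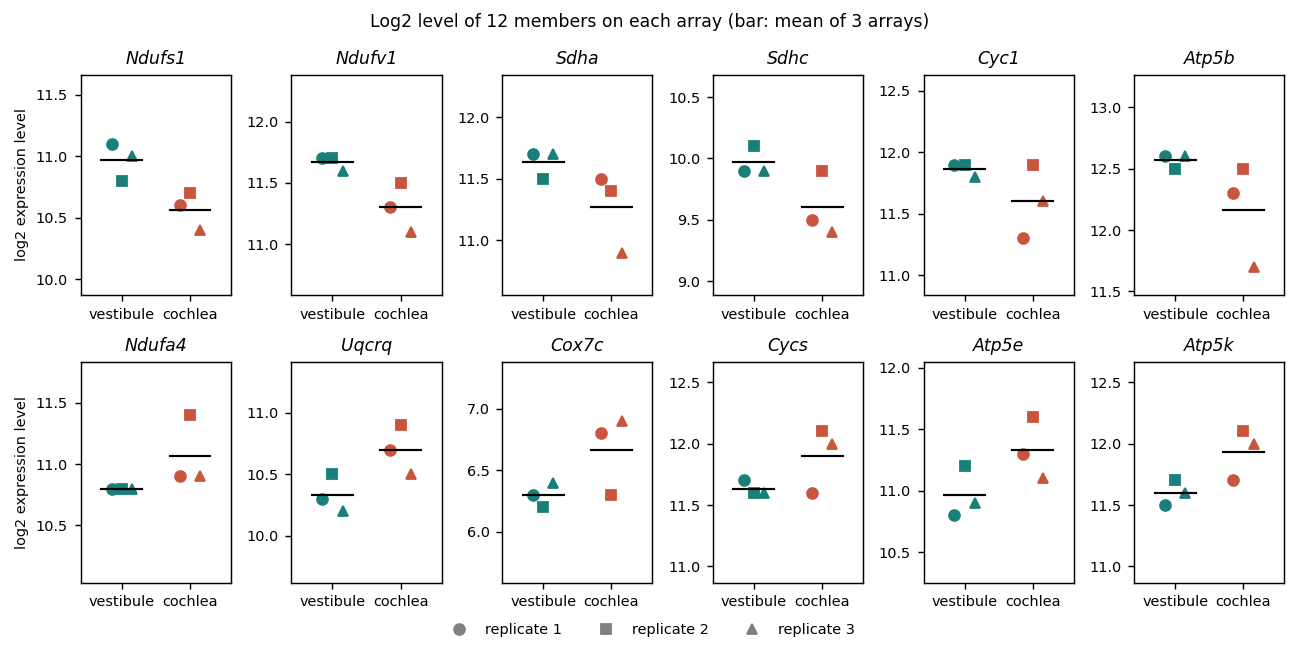
Log2 level (y axis) of 12 members on the 3 vestibular and the 3 cochlear arrays (x axis), with a symbol for each replicate number and a bar for the mean of the tissue. Each panel spans the same log2 range. The vestibular and cochlear arrays of Ndufs1, Ndufv1 and Ndufa4 do not overlap, while in the other 9 members at least 1 cochlear array reaches the vestibular levels.

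Complex IV, cytochrome c oxidase, was represented by 16 nuclear-encoded subunits, since its catalytic core is made from mitochondrial DNA. The median was 0.00 with a range of -0.37 to 0.27, and none was called. Cox5a, a subunit that binds the core from the matrix side, was highest, with 12.1, 12.1 and 12.0 in the vestibule, against 11.9, 12.1 and 11.4 in the cochlea (0.27, limma adjusted p = 0.371). Cox7c was lowest, with 6.3, 6.2 and 6.4 in the vestibule and 6.8, 6.3 and 6.9 in the cochlea. These readings come from its only tested probe set, a dim one whose mean level of 6.48 lay not far above the array medians of 5.6 to 5.7. Here cochlea replicate 2 lay among the vestibular arrays, and the difference of -0.37 (limma adjusted p = 0.191) became -0.55 without it (limma adjusted p = 0.024).

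Several complex IV subunits exist as isoforms, one used in most tissues and another in heart, skeletal muscle, lung or testis. In none of these pairs was a member called in either tissue, and their probe sets are not set against each other in level. Cox4i1, the general form, had a difference of 0.17, and the lung form Cox4i2 one of -0.07, with readings of 4.9 to 5.3 in the vestibule and 4.8 to 5.4 in the cochlea. Cox6a1 was at 0.00 and the muscle form Cox6a2 at -0.17, and Cox6b1 was at -0.20 and the testis form Cox6b2 at 0.03. Cox7a2 was at -0.13 and the muscle form Cox7a1 at 0.23, and Cox8a was at 0.00 beside Cox8b at 0.13 and Cox8c at -0.03. The muscle, lung and testis forms read between 4.8 and 7.1 on all 6 arrays, near or somewhat above the array medians of 5.6 to 5.7.

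Ndufa4 was long listed with complex I and is now placed in complex IV. It read 10.8 on all 3 vestibular arrays, against 10.9, 11.4 and 10.9 in the cochlea, so that the tissues did not overlap and cochlea replicate 2 lay farthest from the vestibule (difference -0.27, 95% interval -0.61 to 0.08, limma adjusted p = 0.296). Its relative Ndufa4l2, which is induced by low oxygen, was at 0.13. Cox7a2l, which joins complexes III and IV, had 12.6, 12.7 and 12.6 in the vestibule and 12.8, 12.8 and 13.0 in the cochlea, and its difference of -0.23 had a limma adjusted p of 0.219.

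Complex V gave 17 subunits with a median of -0.03 and the full spread of the whole set, -0.37 to 0.40, with none called. Atp5b, the catalytic beta subunit, had 12.6, 12.5 and 12.6 in the vestibule, against 12.3, 12.5 and 11.7 in the cochlea, with cochlea replicate 3 the farthest away and replicate 2 level with the vestibule (difference 0.40, 95% interval -0.04 to 0.84, limma adjusted p = 0.219). Atp5a1, the alpha subunit that alternates with beta in the head, had 13.0, 12.9 and 12.9 in the vestibule and 12.8, 12.8 and 12.7 in the cochlea, a difference of 0.17 without overlap (limma adjusted p = 0.352). Another bright probe set of Atp5a1, with a mean level of 12.58, gave 0.37 with overlap. A dim one, with a mean level of 6.47, gave -0.07. The c subunits that build the rotor ring are made from Atp5g1, Atp5g2 and Atp5g3, which encode the same mature protein behind different import signals. Their differences were -0.10, 0.33 and 0.20, and Atp5g2 (10.0, 10.4 and 10.1 in the vestibule, against 9.5, 10.2 and 9.8 in the cochlea) passed only when cochlea replicate 2 was left out (0.52, limma adjusted p = 0.0926) or arrays were weighted.

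At the other end of complex V lay 3 small subunits. Atp5e, the epsilon subunit of the central stalk, had 10.8, 11.2 and 10.9 in the vestibule and 11.3, 11.6 and 11.1 in the cochlea (-0.37, limma adjusted p = 0.183). Atp5k, subunit e of the membrane part, which helps ATP synthase form dimers, had 11.5, 11.7 and 11.6 in the vestibule, against 11.7, 12.1 and 12.0 in the cochlea (-0.33, 95% interval -0.64 to -0.02, limma adjusted p = 0.146). The arrays of Atp5k met at 11.7, and its promoter window holds one of the longer NRF1 matches printed above. Atp5md, another membrane subunit, had 10.6, 10.4 and 10.3 in the vestibule and 10.6, 11.0 and 10.7 in the cochlea (-0.33, limma adjusted p = 0.168). A second quantile normalization brought all 3 past the threshold, higher in the cochlea, and Atp5k also passed without cochlea replicate 1 and with a random value added.

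A pattern among these small differences was seen only after the values were known and is given as a description, without a test. Subunits classed as having a bacterial counterpart tended to lie above 0, and subunits classed as added in eukaryotes below it. The 21 members with a counterpart had a median of 0.20, with 14 above 0 and 7 below (Sdha, whose probe sets disagree, counted above; without it the median was 0.20, with 13 above and 7 below), and the 58 added members had a median of -0.07, with 19 above, 34 below and 5 at 0. In complex I the medians were 0.28 over 6 members with a counterpart and -0.07 over 27 added ones, in complex III 0.25 over 2 and -0.07 over 7, and in complex V 0.13 over 9 and -0.13 over 8. On single arrays the mean of the class with a counterpart exceeded that of the added class by 0.98, 0.91 and 0.93 on vestibule replicates 1 to 3, against 0.82, 0.73 and 0.63 on cochlea replicates 1 to 3. The tissues did not overlap in this contrast, and its means were 0.94 ± 0.04 in the vestibule and 0.73 ± 0.10 in the cochlea (SD, n = 3 each), a difference of 0.22. The contrast restates the values in which the pattern was seen, so its separation adds no support to the pattern. Ndufv2, Ndufs8, Sdhb, Atp5pb, Atp5g1, Atp5d and Atp5o are the members with a counterpart that lay below 0. Besides Sdha, tested probe sets fell on both sides of 0 for Atp5a1 and Atp5c1, counted above. The same held for Ndufv2, Ndufs8 and Atp5pb, counted below, so the side of these members depends on the probe set. Leaving out an array moved the median of the first class between 0.13 and 0.28, and that of the added class between -0.14 and 0.02, the last without cochlea replicate 2. With array weights the added class had a median of 0.01.

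**Figure D4:**
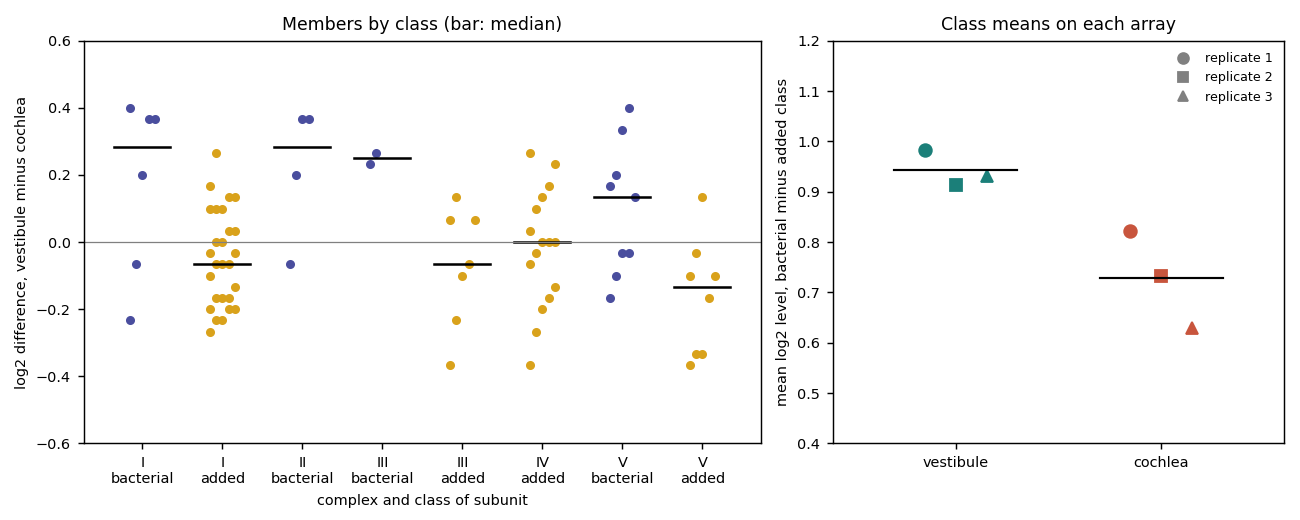
Left, difference of each subunit (points, y axis, log2, vestibule minus cochlea) by complex and by class, bacterial counterpart or added in eukaryotes, with bars for medians. Right, mean log2 level of the class with a counterpart minus that of the added class on each array, with bars for tissue means. The vestibular arrays lie between 0.91 and 0.98, above the cochlear arrays at 0.63 to 0.82. The classes were split after the differences were seen.

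The 12 assembly factors, which help build complexes I and II without staying in them, had a median of -0.05 and a range of -0.33 to 0.30, and none was called. Sdhaf1, which brings iron-sulfur clusters to Sdhb, was the highest at 0.30, with 8.7, 8.7 and 8.4 in the vestibule and 8.1, 8.6 and 8.2 in the cochlea. Ndufaf5, which modifies a complex I subunit, was the lowest at -0.33, with 7.3, 7.8 and 7.8 in the vestibule, against 8.0, 7.9 and 8.0 in the cochlea and no overlap (limma adjusted p = 0.199).

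Many members were read by more than 1 probe set, which gives a check within the same arrays. Ndufs1, the called member, had only 1 probe set and so has no such check. Of 172 tested probe sets of members 3 were called, against 19.4% of all probe sets. In 43 of the 50 members with 2 or more tested probe sets these lay within 0.3 of each other, with a median range of 0.13. In 17 of the 50 the probe sets fell on both sides of 0, among them Ndufv2 (-0.23 by the brightest, 0.10 by another) and Atp5pb (-0.17 by the brightest, 0.13 by the other). The 2 called probe sets beside that of Ndufs1 were both dimmer than the brightest of their gene and differed from it. For Ndufs4, a subunit mutated in some human mitochondrial diseases, the called probe set read 7.4, 7.2 and 7.1 in the vestibule, against 7.5, 7.6 and 7.8 in the cochlea (-0.40, limma adjusted p = 0.0786). This probe set has a mean level of 7.43 and the suffix _x_at, so it may bind related transcripts. The brightest gave 0.03, and another, with a mean level of 6.87, gave 0.20. For Sdha the called probe set, with a mean level of 5.25, read 5.2, 5.0 and 4.9 in the vestibule and 5.7, 5.2 and 5.5 in the cochlea (-0.43, limma adjusted p = 0.0994). The brightest gave 0.37, and another bright one, with a mean level of 10.58, gave 0.17. As the dim probe set differs in sign from both, no direction for Sdha is drawn from them. The 22 members whose brightest probe set may bind related transcripts (suffix _x_at or _s_at) had a median of -0.05, and the other 72 one of -0.03.

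Other mitochondrial gene lists, made from textbook knowledge with earlier results of these data known, also held few calls. Of 203 genes tested 17 were called (8.37%, against 23.1% of all genes), of which 11 had the vestibule above the cochlea and 6 had the cochlea above. Mitochondrial protein import had 0 calls among 14 genes by limma, with 0 at an unadjusted p under 0.05. The 16 genes of pyruvate dehydrogenase and the TCA cycle had a median of 0.20 and 1 call, Idh3a, the catalytic subunit of isocitrate dehydrogenase, which was higher in the vestibule with 10.7, 10.5 and 10.7, against 10.0, 10.2 and 9.5 in the cochlea (0.73, limma adjusted p = 0.0242). The 76 mitochondrial ribosomal proteins had a median of -0.07 and 2 calls, Mrps6 higher in the vestibule (12.3, 12.3 and 12.2, against 11.1, 11.3 and 11.2 in the cochlea, a difference of 1.07) and Mrps15 higher in the cochlea (-0.47).

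Among 31 assembly factors outside the rule, Sco2, which delivers copper to complex IV, was higher in the vestibule (0.47), whereas Cox10, which makes its haem, was higher in the cochlea (-0.53). Coq9 (0.53) was the 1 called gene of 12 in coenzyme Q synthesis. Of 11 shuttle genes 3 were called, which is near the share of all genes called (23.1%), and all 3 were higher in the vestibule: the aspartate-glutamate carriers Slc25a13 (0.87) and Slc25a12 (0.43) and the adenine nucleotide carrier Slc25a4 (0.47). Gpx4, which repairs lipid peroxides, was called among 8 antioxidant genes (0.40). Of 15 fatty acid oxidation genes Cpt1a and Etfdh were called with the vestibule above (both 0.53) and Hadh with the cochlea above (-0.43), again near the share of all genes.

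Among these lists the largest differences stood in the list of regulators of mitochondrial biogenesis. Whether any of them acts on the members in these tissues was not tested. Esrrb, an orphan receptor of the ERR family, had 9.5, 9.3 and 9.3 in the vestibule, against 5.6, 5.5 and 5.8 in the cochlea (3.73, SE 0.13, limma adjusted p = 1.05e-06). Its relative Esrrg ran the other way, with 5.3, 5.2 and 5.3 in the vestibule and 6.9, 7.3 and 7.1 in the cochlea (-1.83, SE 0.13, limma adjusted p = 3.04e-05). Both were separated by far more than the spread of the arrays. Polg2, a subunit of the mitochondrial DNA polymerase (-0.60), and the coactivator Ppargc1b (-0.50) were higher in the cochlea as well, so that 4 of 20 regulators were called, a share near the 23.1% of all genes. Esrra (0.20), Ppargc1a (0.40), Nrf1 (-0.37), Gabpa (0.17), Yy1 (0.13) and Tfam (0.10), which binds mitochondrial DNA, were not called.

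Of 114 cell type markers tested 75 were called (65.8%), against 23.1% of all genes, but the share varied between cell types. Hair cell markers were called with the vestibule above in 7 of 11 genes and with the cochlea above in 1, with list means of 8.81 to 8.90 on the vestibular arrays and 7.85 to 8.06 on the cochlear arrays. Neuronal markers were higher in the cochlea in 10 of 12 genes and higher in the vestibule in 1, with means of 7.20 to 7.37 in the vestibule, against 8.49 to 8.87 in the cochlea. Macrophage markers were higher in the vestibule in 9 of 10 (8.62 to 8.99 in the vestibule, against 7.04 to 7.43 in the cochlea), and melanocyte markers in 7 of 8. Endothelial markers were higher in the vestibule in 6 of 9 and higher in the cochlea in 1, Emcn (-1.57, limma adjusted p = 0.00292). Of 8 markers of cycling cells 0 were called by limma, with 0 at an unadjusted p under 0.05. Supporting cell markers were called in both directions, with the vestibule above in 2 of 10 and the cochlea above in 4. Markers of hair cells, supporting cells and neurons were read in both tissues. The part of cell composition in the member values was not tested.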

How the data were processed

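Labelled RNA of 3 vestibular and 3 cochlear samples was hybridised by the authors to Affymetrix mouse arrays after 2 cycles of amplification. The deposited log2 values were computed by the authors with RMA and quantile normalization, carry 1 decimal (2.8 to 15) and were used as deposited. This normalization forces equal distributions on all arrays, so a shift shared by most transcripts would not be seen. The sources used here do not give versions of RMA and MAS5. Leaving 64 controls aside, the 29636 probe sets with the highest mean, which is the number the study kept by Present calls, were tested (minimum mean 4.68). Genes came from GEO's platform annotation, which named 1 gene for 34945 probe sets and several for 932. Vestibule was set against cochlea with a two-sided limma fit (version 3.58.1, lmFit and eBayes, under R 4.3.3, files read by data.table, version 1.17.8), with Benjamini-Hochberg adjustment over all tested probe sets and 95% confidence intervals. Backgrounds count genes by their brightest probe set.

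The members, lists and rules were chosen with earlier results of these data known, and the split into subunits with and without a bacterial counterpart after the differences were seen. The text names called members, the lowest and highest of each complex, isoform groups, complex II, both cytochrome genes and up to 4 called genes of each list, and other names were chosen after their values were seen. The precision is limited by 3 arrays per tissue. The sources do not say which pool was on which array, so the p-values rest on a spread among arrays that may in part be technical. Correlations between arrays were 0.993 within the vestibule, 0.981 to 0.988 within the cochlea and 0.945 to 0.961 across tissues. The fitting step was tested on simulated data. Alternatives concerned the filter (none, or 20000 probe sets), the scaling (median centring, quantile normalization again), the fit (a trend, array weights, a block for the replicate number, each array left out), the thresholds (adjusted p under 0.05, no fold minimum), the probe sets (their mean, or none with suffix _x_at or _s_at) and the rounding (a random amount of at most 0.05 per value). Leaving out Sdha was added after its probe sets were seen to disagree. Promoters are RefSeq's, GRCm38.p6. Figures were drawn with Python 3.11.15, pandas 2.3.3, numpy 2.4.6 and matplotlib 3.10.9.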

Additional observations from a re-analysis of the deposited data

How the results depend on the processing

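The number of members called stayed small under the 18 alternatives, but which members these were changed. Against 1 member higher in the vestibule as reported, array weights gave 4 and no minimum fold 2, while median centring, a second quantile normalization, the replicate block and an adjusted p under 0.05 each gave 0. Against 0 members higher in the cochlea, array weights gave 2, median centring 1, the added random value 1 and a second quantile normalization 4. With each array left out in turn the counts ran from 0 to 8 higher in the vestibule and from 0 to 3 higher in the cochlea. The 9 calls without cochlea replicate 2 were Atp5g2, Cyc1, Ndufa9, Ndufs1, Ndufs3, Ndufv1, Sdhaf1 and Sdhc, higher in the vestibule, and Cox7c, higher in the cochlea. Those higher in the cochlea elsewhere were Uqcrq (4 alternatives), Atp5k (3), Cox7c, Atp5e, Atp5md, Cycs and Ndufa5. The cause was not tested. Ndufs1 kept its direction under all alternatives and lost its call under 9 of them, with an adjusted p of up to 0.256 by limma. Of 534 values of the 30 named members under alternatives, 15 passed that had not, and 13 values that were not called changed sign, none of them above 0.05 in size. Deviations of same-numbered arrays of the 2 tissues correlated at r = 0.22, 0.15 and -5e-04 across probe sets. Replicates 1 and 2 of each tissue correlated best with their own number, and replicate 3 of neither did. Replicate 2 also had the highest mean of the members in both tissues (10.61 and 10.72). The labels name no pairs, so the numbers were not taken to pair the samples, and whether they do is not known. With the replicate number as a block, 4682 probe sets were called in place of 5747, and 0 members in place of 1. Median centring and the second quantile normalization moved the median of all probe sets by -0.07 and -0.04, and that of the members to -0.10 under both, while array weights gave a member median of 0.02. Values carry 1 decimal, so a difference of means moves in steps of 0.03.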
